A study of Mus musculus with 18 samples.

Results

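The genes described here encode receptors for neurotransmitters, and their chromatin was examined in bone marrow-derived macrophages (BMDM), a cell type that is not a neuron. They were chosen by symbol alone: protein-coding genes on autosomes in GENCODE vM21 (mouse genome mm10) whose names begin as those of glutamate, GABA-A, glycine, nicotinic and muscarinic acetylcholine, serotonin, dopamine and adrenergic receptors do. This gave 93 of 20807 protein-coding autosomal genes, in 13 receptor classes. They comprise 54 subunits of ligand-gated channels, 38 G protein-coupled receptors and 1 gene for a protein that binds a receptor (Grid2ip, which the pattern takes in with the delta glutamate receptors). The BMDM were grown for 7 days in L929-conditioned medium and were not treated further. They came from male mice of 3 genotypes: WT (labelled C57BL6), mdx (labelled Dmdmdx-4Cv, with a mutation in the dystrophin gene) and mdxTLR4-/- (mdx mice that also lack the pattern recognition receptor TLR4 and are labelled Bl6/Bl10). The deposited data are 6 peak lists from ChIP-seq, 1 for each genotype and each of the histone marks H3K27me3 and H3K27ac. By the labels, each genotype has 2 H3K27me3 ChIP libraries with 2 inputs. The H3K27ac libraries are 2 of WT, 2 of mdx, 1 of mdxTLR4-/- and 1 input. The labelled ages were 12 to 13 weeks for WT, 14 to 15 weeks for mdx and 16 to 17 weeks for mdxTLR4-/- mice in the H3K27me3 ChIP, and 19 to 20, 21 to 22 and 23 weeks in the H3K27ac ChIP, but over all libraries, inputs included, they form an unbroken run of 6 to 23 weeks, and so may not be the ages of the mice. Labelled strain and genotype cannot be told apart, and neither can age if those labels hold. Because the authors merged replicates before peaks were called, each genotype is 1 list without a spread between mice, and no difference between genotypes could be tested.

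Ligand-gated channels open within the synapse when they bind transmitter, whereas the G protein-coupled receptors act more slowly through second messengers. In cells outside the lineage in which they are used, developmental and neuronal genes are often held under H3K27me3, a mark laid down by Polycomb repressive complex 2, which is recruited mainly to CpG-rich sequence that is not being transcribed. H3K27ac marks active promoters and enhancers. A few of these receptors are also known outside the nervous system: macrophages respond to acetylcholine through the alpha7 nicotinic receptor (Chrna7), serotonin acts on them through Htr2b among others, and muscle is innervated through the nicotinic subunits Chrna1, Chrnb1, Chrnd, Chrne and Chrng.

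The genes fell into 3 main forms in the data, and the 250 bases upstream of the annotated start are shown for 6 genes that stand for them. In these sequences, read from GRCm38.p6 (the same primary sequence as mm10) and written 5′ to 3′ on the strand of the gene, every CG is in capitals. Drd5 (a dopamine D1-like receptor, chr5:38319117-38319366, plus strand) and Chrnd (the delta subunit of the muscle nicotinic receptor, chr1:87190357-87190606, plus strand) lay whole within a broad H3K27me3 peak. Chrna7 (chr7:63212570-63212819, minus strand) and Grid1 (a delta glutamate receptor, chr14:34819858-34820107, plus strand) had a peak over the start and almost nothing over the rest of a long gene. Gabrb2 (chr11:42419507-42419756, plus strand) and Gabra6 (chr11:42321073-42321322, minus strand), subunits of the GABA-A receptor, had no H3K27me3 peak.
Drd5: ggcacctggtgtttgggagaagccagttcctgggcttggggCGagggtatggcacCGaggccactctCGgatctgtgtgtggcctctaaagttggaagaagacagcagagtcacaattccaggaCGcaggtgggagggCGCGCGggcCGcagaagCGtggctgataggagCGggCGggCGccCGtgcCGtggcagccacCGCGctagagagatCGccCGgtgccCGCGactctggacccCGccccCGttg
Chrnd: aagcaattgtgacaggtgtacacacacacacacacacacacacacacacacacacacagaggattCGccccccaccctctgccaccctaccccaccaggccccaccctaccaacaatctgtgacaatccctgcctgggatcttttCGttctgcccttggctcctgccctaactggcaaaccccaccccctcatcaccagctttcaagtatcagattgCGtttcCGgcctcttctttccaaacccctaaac
Chrna7: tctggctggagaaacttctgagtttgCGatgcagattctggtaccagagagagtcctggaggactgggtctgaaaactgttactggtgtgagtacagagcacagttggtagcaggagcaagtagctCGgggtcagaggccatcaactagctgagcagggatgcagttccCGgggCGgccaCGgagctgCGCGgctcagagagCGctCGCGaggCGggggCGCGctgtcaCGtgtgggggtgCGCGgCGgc
Grid1: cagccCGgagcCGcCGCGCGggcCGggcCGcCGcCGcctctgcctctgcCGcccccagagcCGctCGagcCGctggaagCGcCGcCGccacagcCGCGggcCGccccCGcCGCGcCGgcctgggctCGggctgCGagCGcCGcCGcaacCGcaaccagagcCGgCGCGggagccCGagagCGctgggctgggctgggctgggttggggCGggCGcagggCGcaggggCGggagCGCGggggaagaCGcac
Gabrb2: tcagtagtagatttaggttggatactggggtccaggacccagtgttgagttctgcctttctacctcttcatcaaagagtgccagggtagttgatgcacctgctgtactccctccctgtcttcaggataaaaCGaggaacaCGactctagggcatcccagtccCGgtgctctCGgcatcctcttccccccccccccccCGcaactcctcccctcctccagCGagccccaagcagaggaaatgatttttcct
Gabra6: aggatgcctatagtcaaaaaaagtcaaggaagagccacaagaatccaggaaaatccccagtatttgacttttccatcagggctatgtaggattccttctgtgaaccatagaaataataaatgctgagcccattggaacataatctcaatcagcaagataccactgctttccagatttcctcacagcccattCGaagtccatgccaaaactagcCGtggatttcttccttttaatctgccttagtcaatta
The upstream stretch held 22 CG in Drd5, 4 in Chrnd, 17 in Chrna7, 41 in Grid1, 6 in Gabrb2 and 2 in Gabra6. A broad domain was thus present over a CG-rich and over a CG-poor start alike.

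The label of the cells was checked on marker genes. All 12 macrophage markers (among them Csf1r, Adgre1, Cd68 and Spi1) had an H3K27ac peak within 5 kb of the start in WT and in mdxTLR4-/- BMDM, and 11 did in mdx BMDM, where Csf1r had none. Of 9 neuron markers, 0 had such a peak in WT, 0 in mdx and 1 (Tubb3) in mdxTLR4-/-. Of 8 lymphocyte markers, 3, 2 and 2 had one, of 8 skeletal muscle markers 1, 0 and 0, and of 7 neutrophil markers 0 in each genotype. The 3 H3K27me3 lists held 28143 peaks in WT and 41780 in mdx, with 36488 in mdxTLR4-/- BMDM, and the median peak had 123, 89 and 75 ChIP reads. The H3K27ac lists held 12076 to 15665 peaks with a median of 8 to 10 reads, so that H3K27ac values rest on few reads.

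Neurotransmitter receptor genes carried H3K27me3 much more often than protein-coding genes did as a whole, in each of the 3 genotypes. Coverage is the share of a gene window, which reaches from 5 kb before the gene to 1 kb beyond it, that lies under H3K27me3 peaks. At least 50% of the window was covered in 37 of the 93 genes in WT BMDM (39.8%), in 35 in mdx (37.6%) and in 34 in mdxTLR4-/- BMDM (36.6%). Among all 20807 genes the same was true of 17.5% in WT, 17.1% in mdx and 15.6% in mdxTLR4-/-. The median coverage of the receptor genes was 24.6% in WT and 25.4% in mdx, with 19.4% in mdxTLR4-/- BMDM, while the median over all genes was 0 in each genotype. A total of 32 of the 93 receptor genes were covered in all 3 genotypes, against 3058 of all 20807 genes. In their window, 20 receptor genes had no H3K27me3 peak in any genotype, against 11177 of all genes. Just above the limit of 50% in WT lay Chrnb2 (52.4%) and Grin3b (54.5%), and just below it lay Adra1a (49.7%) and Grm6 (49.2%).

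Receptor genes stood furthest from other genes at the start of the gene in WT and mdx BMDM, and 1 kb downstream of it in mdxTLR4-/- BMDM. The start lay under an H3K27me3 peak in 61 receptor genes in WT BMDM (65.6%), in 63 in mdx (67.7%) and in 59 in mdxTLR4-/- BMDM (63.4%). Over all genes the start lay under a peak in 24.5% in WT, 24.7% in mdx and 23.6% in mdxTLR4-/-. The same 55 receptor genes had the start under a peak in all 3 genotypes, and 27 did in none. Over all 20807 genes these counts were 4363 and 15055. In WT the share of receptor genes under a peak declined from 65.6% at the start to 31.2% at 5 kb upstream and 40.9% at 5 kb downstream. At 30 kb upstream it was 20.4%, against 19.7% for all genes, while downstream the excess reached further, with 31.2% against 17.4% at 10 kb, 25.8% against 17.5% at 20 kb and 21.5% against 17.4% at 30 kb. The plot of this share by distance shows the same shape in the 3 genotypes.

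**Figure D1:**
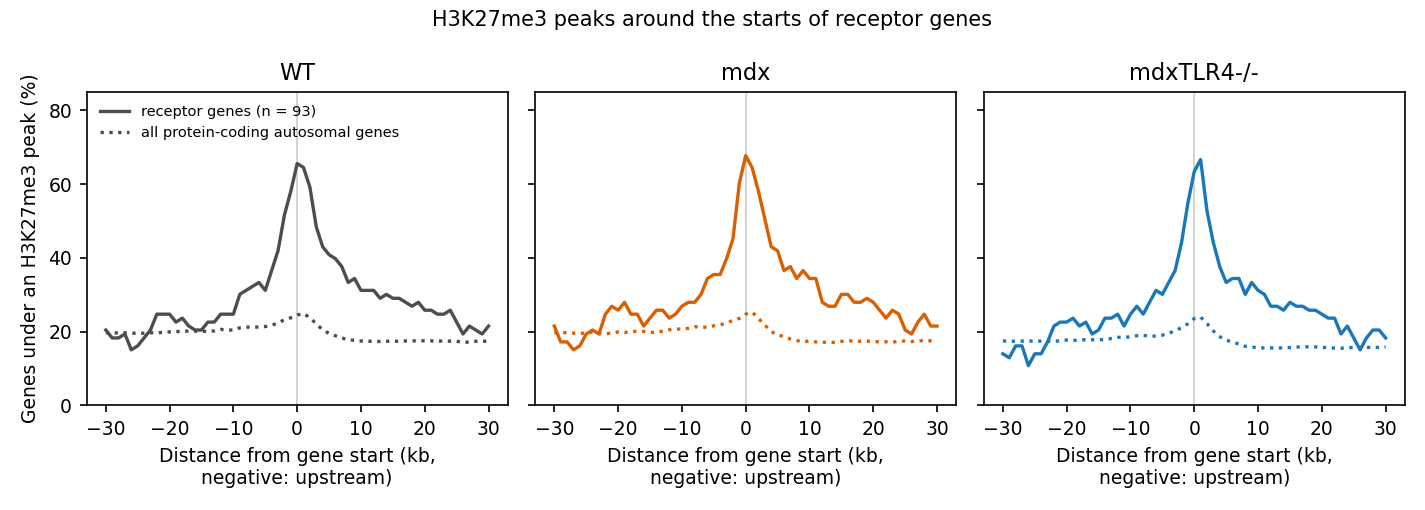
Share of genes under an H3K27me3 peak (y axis, %) at each kb from 30 kb upstream to 30 kb downstream of the gene start (x axis), in 1 panel per genotype, for the 93 receptor genes (solid line) and all protein-coding autosomal genes (dotted line). The receptor genes reach 65.6%, 67.7% and 63.4% at the start in WT, mdx and mdxTLR4-/- BMDM, where all genes reach 24.5%, 24.7% and 23.6%.

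H3K27me3 was not particular to receptors among genes of excitable cells. Of 111 genes for voltage-gated and potassium channels, 53 were covered over at least 50% of the window in WT and 49 in mdx, with 47 in mdxTLR4-/- BMDM, and their start lay under a peak in 77, 76 and 74. These are 69.4%, 68.5% and 66.7% of the channel genes, close to the values of the receptor genes.

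Among the glutamate-gated channels, coverage ran from little or nothing to most of the window within the kainate and the NMDA class. The AMPA receptors, which carry fast excitation in the brain, were nearly free of the mark. Gria1 and Gria4 had 0% in all 3 genotypes, and Gria2 had 2.83% in WT, 3.14% in mdx and 0.94% in mdxTLR4-/-. Of the 5 kainate receptors, Grik4 had the highest coverage (90.7%, 88.8% and 84.8% in WT, mdx and mdxTLR4-/- BMDM) and Grik1 and Grik2 had none. Of the 7 NMDA receptor subunits, Grin1, the subunit that every NMDA receptor holds, was covered over 97.1%, 97.1% and 96.5% of its window, with all of its 21 exons under peaks. Grin2a, which joins Grin1 in the adult forebrain, had 1.48%, 1.01% and 1.15%, the lowest value of its class in WT. Of the delta class, Grid2ip had 98.0%, 96.1% and 95.6%, and Grid1 differed from it in form, with the mark at the start of a long gene.

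The 8 metabotropic glutamate receptors, which are G protein-coupled, were divided in the same way. Grm4 had 99.2% in WT and 93.5% in mdx, with 94.7% in mdxTLR4-/- BMDM, whereas Grm3 and Grm7 had no peak in any list. The median coverage of the class in WT was 1.36%, although 5 of its 8 starts lay under a peak.

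Few genes of the inhibitory channels were covered. Of the 16 GABA-A receptor subunits, 2 were covered over at least 50% of the window in WT (12.5%, against 17.5% of all genes). No H3K27me3 peak was present in any genotype in 8 of the 16, nor in 11177 of all 20807 genes. The start lay under a peak in 5 in WT (31.25%, against 24.5% of all genes). On these WT shares the class was near all genes, and below the 39.8% and 65.6% of the 93 receptor genes. Gabrd, the delta subunit of receptors outside the synapse, was covered over 100% of its window in the 3 genotypes. It lay in the longest domain over a receptor start in WT, a peak of 173 kb with 8023 reads that also held the starts of Cfap74, Prkcz and Tmem52, and the peak over it was 142.4 kb long in mdx and 108 kb in mdxTLR4-/-. Gabrr1, which forms GABA-gated channels of the retina, was the other covered gene, with 66.5% in WT. Of the 3 glycine receptor subunits on autosomes, Glra1 had 24.4% in WT and 34.2% in mdx, with 18.4% in mdxTLR4-/- BMDM, and Glra3 had none.

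Nicotinic receptors for acetylcholine, the transmitter of the neuromuscular junction, were covered more often than the muscarinic ones. This did not hold for the start of the gene in WT and mdxTLR4-/- BMDM. In each of these, 68.75% of nicotinic and 80% of muscarinic starts lay under a peak. In mdx BMDM the shares were 68.75% and 60%. Of 16 nicotinic subunits, 10 were covered in WT and 8 in mdx, with 9 in mdxTLR4-/- BMDM, and the median coverage of the class was 61.9%, 56.4% and 58.8%. Chrna3 and Chrnb4, subunits of the receptor of autonomic ganglia, had 100% in WT, while Chrna6, Chrna9 and Chrnb3 had no peak in any list. Of the 5 muscle subunits, Chrna1, Chrnd and Chrng were covered in all 3 genotypes, and Chrnb1 and Chrne in none. Of the 5 muscarinic receptors, 1 was covered in WT and 2 in mdx, with 1 in mdxTLR4-/- BMDM, and the median was 25.6%, 24.8% and 19.4%. Chrm4 had the highest coverage in WT (61.2%, with 55.8% in mdx and 55.8% in mdxTLR4-/- BMDM) and Chrm2, the receptor of the heart, the lowest (1.50%, with 1.64% and 1.64%).

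The receptors for monoamines ran from full coverage to none. Of 13 serotonin receptors, 6 were covered in WT, with 5 in each of the other genotypes, and with medians of 42.0%, 48.2% and 31.3%. Htr6 had 100% in the 3 genotypes, Htr2b had no peak in any list, and Htr2a had 0% in WT and 1.61% in mdx, with 2.95% in mdxTLR4-/- BMDM. Of 5 dopamine receptors, Drd5 had 100% in the 3 genotypes and Drd3, at the low end of the class, had 0% in WT, 4.00% in mdx and 6.41% in mdxTLR4-/-. The alpha adrenergic receptors had the highest median of any class in WT, at 96.7%, with 90.3% in mdx and 87.2% in mdxTLR4-/- BMDM. Adra2b had 100% in all 3, and Adra1b, at the low end, 24.6%, 20.8% and 14.6%. Of the 3 beta adrenergic receptors, Adrb1 had 100% in WT, 95.3% in mdx and 88.2% in mdxTLR4-/-. The plot of coverage by receptor class shows that most genes lie near either end of the scale.

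**Figure D2:**
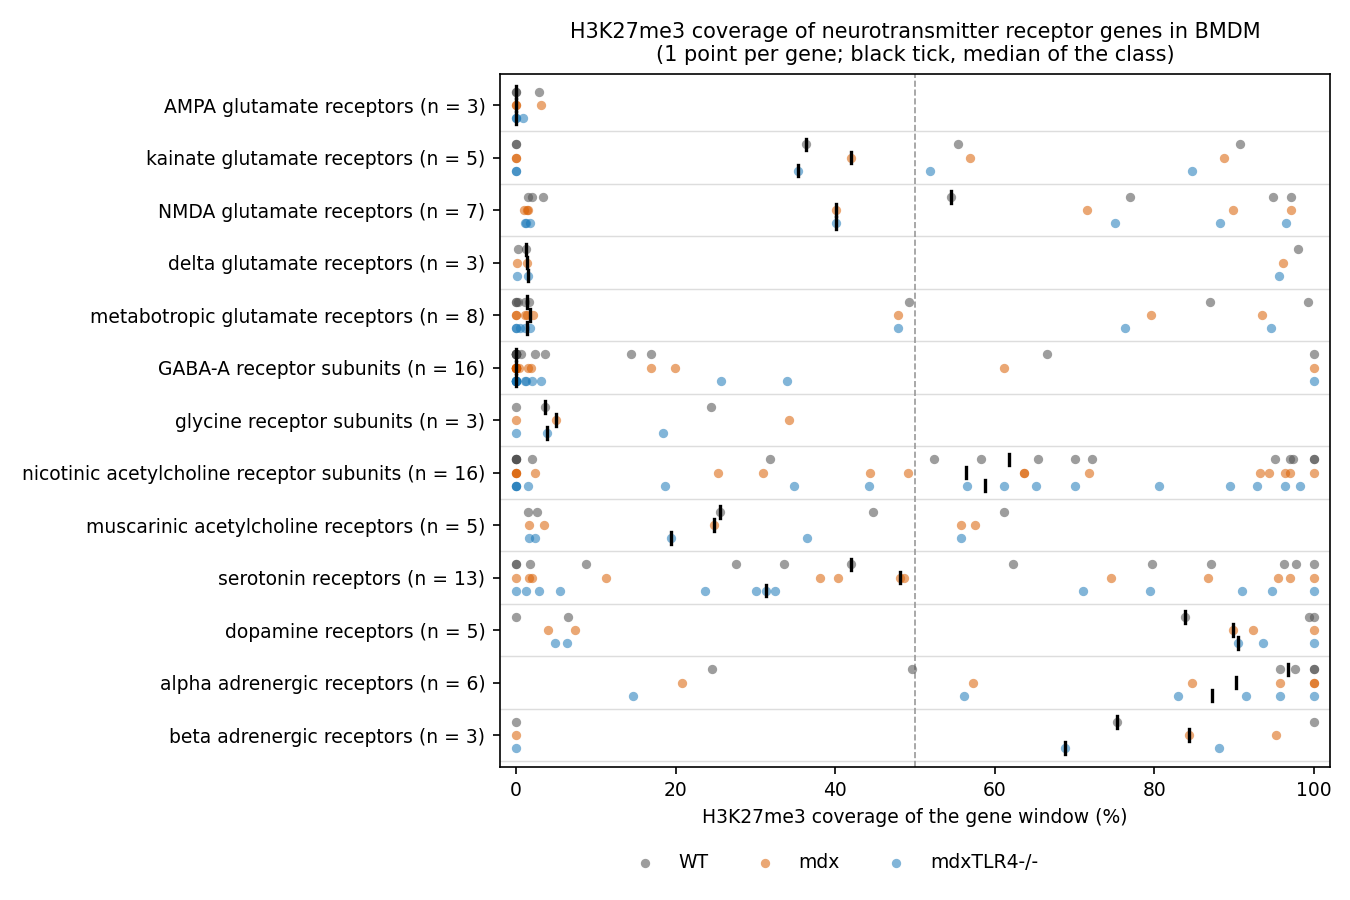
H3K27me3 coverage of the gene window (x axis, %) for the 93 receptor genes by class (y axis), with 1 point per gene and genotype and a black tick at the median of the class; the dashed line is at 50%. The GABA-A subunits gather at 0, and the alpha adrenergic receptors have medians of 96.7%, 90.3% and 87.2% in WT, mdx and mdxTLR4-/- BMDM.

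Coverage went with the length of the gene, and the start did so less. In WT BMDM the 37 covered genes had a median length of 16.4 kb and a median coverage of 95.1%. Another 27 genes had the start under a peak but less than 50% of the window covered, with a median length of 135.9 kb and a median coverage of 3.60%. A further 24 genes had no peak in the window, with a median length of 91.1 kb, and 5 had peaks away from the start alone. Across the 93 genes the Spearman correlation of length with WT coverage was -0.55, against 0.03 across all 20807 genes. It describes genes that share the same libraries and carries no test.

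The covered receptor genes were mostly short. Among receptor genes under 20 kb, 24 of 35 were covered in WT (68.6%), against 21.4% of all genes of that length. Between 20 and 100 kb, 12 of 27 receptor genes were covered (44.4%), against 14.5% of all. Over 100 kb, 1 of 31 was covered (3.23%), against 7.93% of all. That gene was Grik4, which is 426.4 kb long and had 19 of its 21 exons under peaks. The start lay under a peak in 80.0%, 63.0% and 51.6% of the receptor genes in the 3 length classes, against 23.5%, 22.7% and 34.7% of all genes.

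Of the 31 receptor genes over 100 kb, 16 had the start under a peak in WT, and in 10 of these it was the only peak of the window. The other 6 had further peaks, as many as 12 in all at Grik3, a kainate receptor subunit, and another 11 genes had no peak. The peak over the start had a median length of 24.9 kb in the covered genes (n = 34) and of 4.6 kb in the genes covered over less than 50% of the window (n = 27). At Grid1, which is 763.3 kb long, the start peak was 12.8 kb long in WT (607 reads), 10.8 kb in mdx (749 reads) and 11.8 kb in mdxTLR4-/- BMDM (611 reads), over 2 of 16 exons. At Chrna7 it was 2.4 kb long in WT (62 reads), 2.8 kb in mdx (96 reads) and 1.8 kb in mdxTLR4-/- BMDM (51 reads), over 2 of 10 exons. The peak at Drd5 was 17.0 kb long in WT (648 reads), 16.8 kb in mdx (794 reads) and 16.6 kb in mdxTLR4-/- BMDM (616 reads), which was longer than the gene itself, of 3.15 kb. At these genes the start peak filled the window of the short gene and left most of the long ones bare.

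**Figure D3:**
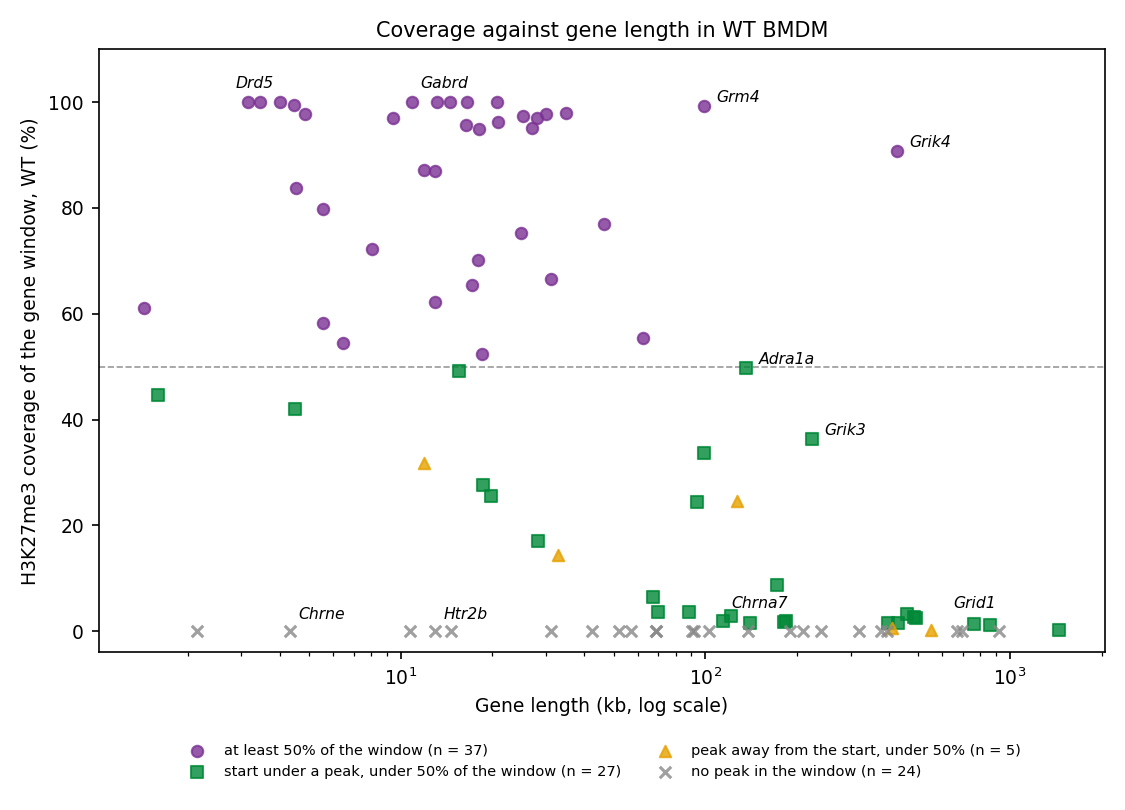
H3K27me3 coverage of the gene window in WT BMDM (y axis, %) against gene length (x axis, kb, log scale), 1 point per receptor gene, with shapes for the 4 forms of marking and a dashed line at 50%. Of the genes over 100 kb, Grik4 alone lies above the line, with 90.7%.

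Receptor genes that lie side by side shared domains in some places and lacked the mark together in others. On chromosome 9, Chrna5, Chrna3 and Chrnb4 lie together (chr9:54975880-55053779, with 5 kb on each side), and H3K27me3 peaks covered 97.9% of this stretch in WT and 95.4% in mdx, with 87.2% in mdxTLR4-/- BMDM. The peaks that reached the stretch were 3 in WT, 5 in mdx and 6 in mdxTLR4-/-, and 1 peak of 58.4 kb with 2225 reads joined parts of all 3 genes in WT alone. On chromosome 1, Chrnd and Chrng each lay under a peak of their own. The peak over Chrnd was 18.2 kb long in WT (1026 reads), 17.4 kb in mdx (1047 reads) and 17.8 kb in mdxTLR4-/- BMDM (928 reads), and reached into the window upstream of Chrng. The peak over the start of Chrng was 9.2 kb long with 372 reads (WT), 8.4 kb with 419 reads (mdx) and 8 kb with 338 reads (mdxTLR4-/-). On chromosome 8, by contrast, Chrnb3 and Chrna6 lay in 55.2 kb without a peak of either mark in any genotype.

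A cluster of GABA-A subunits was nearly bare. On chromosome 5, Gabrg1, Gabra2, Gabra4 and Gabrb1 lay in 1408 kb with 0.85% under H3K27me3 peaks in WT and 0.53% in mdx, with 0.41% in mdxTLR4-/- BMDM. There, Gabra4 and Gabrb1 start head to head and shared 1 peak over both starts, 3.4 kb long in WT (80 reads), 1.8 kb in mdx (65 reads) and 3 kb in mdxTLR4-/- BMDM (54 reads). The other H3K27me3 peaks of this stretch were 2 in WT and in mdx and 1 in mdxTLR4-/- BMDM, and held 62 to 117 reads. On chromosome 7, a peak of 38 reads over the start of Gabra5 was present in mdxTLR4-/- BMDM alone.

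**Figure D4:**
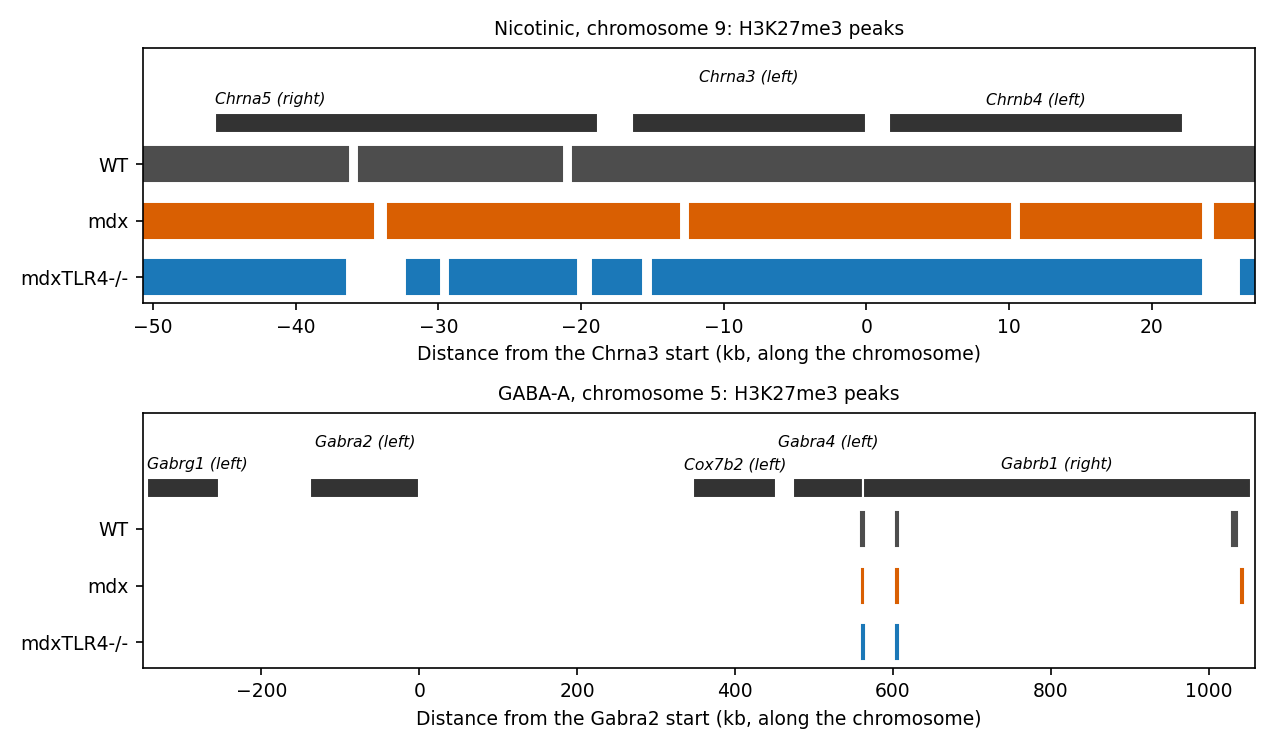
H3K27me3 peaks (coloured bars, 1 row per genotype) and genes (dark bars, with the direction of transcription) in the nicotinic cluster of chromosome 9 (top) and the GABA-A cluster of chromosome 5 (bottom), against the distance in kb from the start of Chrna3 and of Gabra2. Peaks cover 97.9%, 95.4% and 87.2% of the nicotinic stretch in WT, mdx and mdxTLR4-/- BMDM, and 0.85%, 0.53% and 0.41% of the GABA-A stretch.

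H3K27ac was rare at receptor genes. A peak lay within 5 kb of the start in 4 of 93 genes both in WT and in mdx (4.30%), and in 3 in mdxTLR4-/- BMDM (3.23%). Among all genes it was 32.9% in WT, 28.3% in mdx and 30.4% in mdxTLR4-/-. The median distance from the start of a receptor gene to the nearest H3K27ac peak was 83.9 kb in WT and 126 kb in mdx, with 107 kb in mdxTLR4-/- BMDM, against 24.5, 34.1 and 31.3 kb over all genes.

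Of the genes described here, Grin2d, Grik5, Adra1a and Htr2a had such a peak in at least 1 genotype. At Grin2d, an NMDA receptor subunit, a peak of 9 (WT), 7 (mdx) and 15 reads (mdxTLR4-/-) lay 3778 to 4578 bp into the gene, 29 to 229 bp from the start of Kdelr1, which overlaps Grin2d on the opposite strand. At Grik5, a kainate receptor subunit, a peak of 14 (WT), 12 (mdx) and 6 reads (mdxTLR4-/-) lay 3655 to 4255 bp upstream of the start, which was itself under H3K27me3 in all 3 genotypes. In each genotype this H3K27ac peak lay nearer to the start of Zfp574 (3434 to 4034 bp). The starts of Zfp574 and Grik5 lay under the same H3K27me3 peak. At Adra1a, an alpha1 adrenergic receptor, 1 peak of 7 reads lay over the start in mdx BMDM alone, in a stretch that was also under H3K27me3. The exact 95% Poisson interval of 7 reads is 2.81 to 14.4, which covers counting error only. At Htr2a, the receptor of the classic hallucinogens, 1 peak of 7 reads in WT BMDM reached the window by 40 bp, 4961 bp downstream of the start.

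The marks were also examined at Chrna7 and Htr2b, which are known from macrophages. Chrna7 had no H3K27ac peak within 5 kb in any genotype, and its start lay under H3K27me3 in all 3, with coverage of 2.00% in WT, 2.34% in mdx and 1.50% in mdxTLR4-/-. Htr2b had neither mark at its own start. It lies inside Psmd1, a proteasome gene on the opposite strand whose start had H3K27ac in all 3 genotypes and whose window had no H3K27me3. Whether any of these genes was transcribed was not measured here.

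Between genotypes most receptor genes kept their coverage, and the share that moved was compared with that among all genes. From WT to mdx, 5 receptor genes were lower by at least 10 percentage points (5.38%, against 5.79% of all genes) and 3 were higher (3.23%, against 5.04%). From mdx to mdxTLR4-/-, 8 were lower (8.60%, against 8.03%) and 1 was higher (1.08%, against 2.6%). From WT to mdxTLR4-/-, 11 were lower (11.8%, against 8.82%) and 2 were higher (2.15%, against 2.67%). These 3 comparisons share lists with one another.

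Since receptor genes have a peak more often than other genes, the counts were also set against genes with an H3K27me3 peak in any list, 73 receptor genes and 9630 genes in all. Of these 73, 6.85% were lower and 4.11% higher in mdx than in WT, against 12.5% and 10.9% of the 9630. From mdx to mdxTLR4-/-, 11.0% were lower and 1.37% higher, against 17.3% and 5.63%. From WT to mdxTLR4-/-, 15.1% were lower and 2.74% higher, against 19.1% and 5.76%. In each of the 6 counts the marked receptor genes were called less often than marked genes as a whole, a difference that was not tested. In WT, 27 receptor genes had the start under a peak and less than 50% of the window covered. Their median coverage was 3.60%, and a window with so little coverage cannot fall by the size of a called difference. The counts therefore cannot show whether receptor genes changed less than other marked genes.

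Differences of any size were counted too. From WT to mdx, coverage was lower in 34 genes, higher in 31 and equal in 28, with a mean difference of -0.26 points over the 93 genes and -0.19 over all genes, of which 4219 were lower and 4049 higher. From mdx to mdxTLR4-/-, it was lower in 47, higher in 16 and equal in 30, with a mean of -2.59 points, against -1.47 over all genes, of which 5595 were lower and 2758 higher. From WT to mdxTLR4-/-, it was lower in 51, higher in 16 and equal in 26, with a mean of -2.85 points, against -1.66 over all genes, of which 5395 were lower and 2664 higher. The lean towards lower coverage in mdxTLR4-/- BMDM was thus present over all genes as well.

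The largest fall from WT to mdxTLR4-/- was at Htr5a, a serotonin receptor of the brain. Its coverage was 62.3% in WT and 48.6% in mdx, with 23.7% in mdxTLR4-/- BMDM. The peak over its start narrowed from 4.8 kb (171 reads) in WT to 3.8 kb (198 reads) in mdx and 2.2 kb (85 reads) in mdxTLR4-/- BMDM, and the start stayed under a peak throughout. Gabrr1 came next, with 66.5%, 61.2% and 34.0%, where a start peak of 12.8 kb in WT was replaced by peaks of 2.4 kb over the start in mdx and in mdxTLR4-/- BMDM. The exons of Gabrr1 under peaks were 8, 7 and 5 of 10. With a stricter read density for peaks, the difference of Gabrr1 between WT and mdxTLR4-/- BMDM was -5.94 points in place of -32.6.

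At 3 other genes coverage was also highest in WT. Htr3b, a subunit of the serotonin-gated channel, had 97.8% in WT, 86.7% in mdx and 79.4% in mdxTLR4-/-. Adra2a, the presynaptic alpha2 adrenergic receptor, had 97.7%, 84.8% and 82.9%. Grin3b, an NMDA subunit of motor neurons, had 54.5%, 40.1% and 40.1%. Chrna5, Chrnb1, Adrb1, Grm2 and Chrnb4 were lower by 10.5 to 14.6 points in mdxTLR4-/- than in WT BMDM, of which Chrna5 alone was higher in mdx (97.0%) than in WT (95.1%).

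Chrne showed the reverse order. It encodes the epsilon subunit that replaces the gamma subunit of the muscle receptor after birth, and its coverage was 0% in WT and 31.0% in mdx, with 34.8% in mdxTLR4-/- BMDM. The peak lay over the start and over 8 of 12 exons, with 73 reads in 3.2 kb in mdx and 81 reads in 3.6 kb in mdxTLR4-/- BMDM. The difference between WT and mdx was 0 with equal numbers of peaks and with a stricter read density, whereas that between WT and mdxTLR4-/- BMDM was 34.8 points under both. By comparison, Chrnd and Chrng, for the delta and gamma subunits of the muscle receptor, stayed covered in all 3 genotypes. In WT, mdx and mdxTLR4-/- BMDM, Chrnd had 97.0%, 94.4% and 98.3%, and Chrng had 72.3%, 63.7% and 65.1%. Of the other muscle subunits, Chrna1 was covered in all 3 genotypes and Chrnb1 in none.

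At Htr5b, Chrm5 and Chrna10 the mdx value differed by at least 10 points from that of both WT and mdxTLR4-/- BMDM. Glra1 and Adrb3 were also highest in mdx, but differed from WT by only 9.80 and 9.08 points. Htr5b, a serotonin receptor that is not functional in humans, had 27.6% in WT, 48.2% in mdx and 30.1% in mdxTLR4-/-. Chrm5, a muscarinic receptor of the midbrain, had 44.7%, 57.5% and 36.4%. Glra1, the adult glycine receptor subunit, had 24.4%, 34.2% and 18.4%. Adrb3, the beta3 adrenergic receptor of fat, had 75.3%, 84.4% and 68.8%. Chrna10, a nicotinic subunit of hair cells, had 58.2%, 44.4% and 56.5%, the lowest value in mdx, and its peak also held the starts of Art1 and Art5 in each genotype.

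At 2 further GABA-A genes the mdxTLR4-/- value was the lowest (Gabrp) or the highest (Gabrr2), although Gabrr2 differed from mdx by only 8.75 points. Gabrp, the pi subunit, had 17.0% in WT and 19.9% in mdx, with 0% in mdxTLR4-/- BMDM. Its start peak held 99 reads in WT and 136 reads in mdx, and with a stricter read density its differences between mdxTLR4-/- BMDM and either other genotype were 0. Gabrr2, the neighbour of Gabrr1, had 14.4%, 17.0% and 25.7%, from peaks that lay away from its start. The remaining rises that were among the 5 largest of a comparison were of 3.82 to 6.70 points, at Chrnd, Drd4, Drd1, Adra1a and Drd3. The plot of the genes that differed shows that their WT values span nearly the whole scale.

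**Figure D5:**
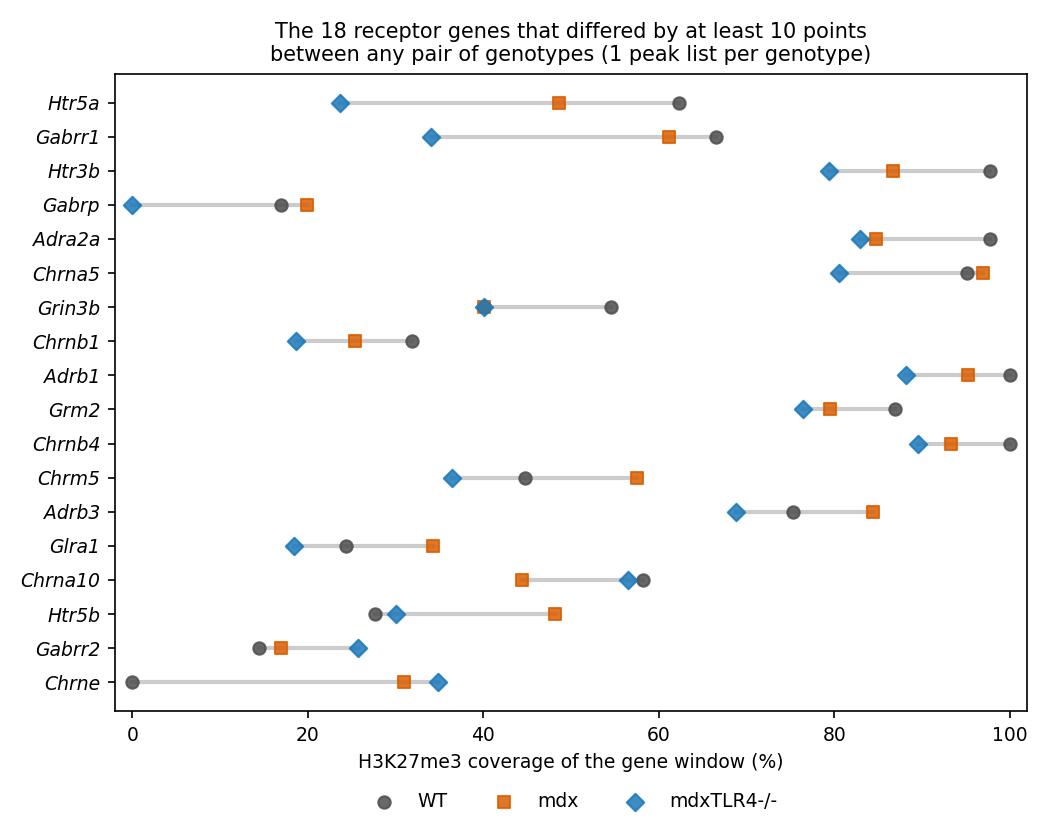
H3K27me3 coverage of the gene window (x axis, %) in WT (circles), mdx (squares) and mdxTLR4-/- BMDM (diamonds) for the 18 receptor genes (y axis) that differed by at least 10 points between any pair of genotypes. Htr5a spans 62.3% to 23.7% and Chrne 0% to 34.8%, and each point rests on 1 peak list, so there is no error bar.

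At the start itself, 11 of the 93 genes changed between genotypes in whether a peak was present, while 55 had one in all 3 genotypes and 27 in none. Over all 20807 genes, 4363 had one in all 3 genotypes and 15055 in none, and the remainder changed. Whether receptor genes changed more or less often than other genes was not tested. Among the 11 receptor genes, Gria2, Gabrp and Adra1a had a peak over the start in WT and mdx but not in mdxTLR4-/- BMDM. At Adra1a the mdxTLR4-/- list had peaks on either side instead, with the nearer edge 150 bp past the start. Chrne and Htr2a had the start under a peak in mdx and mdxTLR4-/- BMDM but not in WT, Drd3 and Grik4 in mdx alone, Gabra5 in mdxTLR4-/- alone, Chrna10 in WT alone, and Chrm5 in WT and mdxTLR4-/- BMDM. Some of these changes were shifts of a peak edge. At Chrna10 the edge lay 28 bp from the start in mdxTLR4-/- BMDM, and at Grik4 it lay 293 bp from it in WT and 93 bp in mdxTLR4-/- BMDM.

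The read density, in unscaled ChIP reads per kb of peak, followed that of the lists as a whole. In receptor genes with a peak in both lists, the median ratio of mdx to WT was 1.19 (n = 69, quartiles 1.11 and 1.28), against 1.20 over all such genes. The ratio of mdxTLR4-/- to mdx was 0.829 (n = 71, quartiles 0.751 and 0.875), against 0.812, and that of mdxTLR4-/- to WT was 0.972 (n = 68, quartiles 0.894 and 1.08), against 0.975. These ratios carry the depth of each library, which is unknown here, and scaled to 1000000 reads in peaks per list they were 0.969, 1.15 and 1.10. The direction of each therefore depended on the scaling, and no change of density is read from them.

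Other genes of synaptic transmission, from lists fixed by function, were also often covered. Of 16 genes for the synthesis or breakdown of transmitters, 7 were covered over at least 50% of the window in WT BMDM, with 6 in mdx and 7 in mdxTLR4-/- BMDM. Th and Dbh, enzymes in the synthesis of dopamine and noradrenaline, had 100% in WT, while Ddc of the same pathway had 15.1%. Glul, the glutamine synthetase that macrophages also use, had no H3K27me3 and an H3K27ac peak in all 3 genotypes. Of 21 transporters, 11, 11 and 10 were covered (52.4%, 52.4% and 47.6%), among them Slc32a1, the vesicular GABA transporter, at 100% in the 3 genotypes. Of 32 scaffold proteins and auxiliary subunits, 13, 14 and 12 were covered (40.6%, 43.75% and 37.5%). Shank2 had 94.9% in WT and 93.8% in mdx, with 95.3% in mdxTLR4-/- BMDM, and Homer3 had no H3K27me3. Both GABA-B receptor genes, which the symbol pattern does not take in, were covered, with 96.6%, 90.9% and 81.0% for Gabbr1 and 62.0%, 61.6% and 62.4% for Gabbr2. Among the genes for GABA synthesis and breakdown, Gad1, the main GABA-making enzyme, had 82.1%, 70.9% and 62.2%. Gad2 had 30.7%, 45.3% and 22.7%, and Abat 39.1%, 36.4% and 8.74%. These values are shares of single gene windows. They are not comparable with the share of the whole GABA-A stretch on chromosome 5, which also holds sequence between genes.

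CpG content around the start went with the form of marking in receptor genes. In the 1000 bases centred on the start, the median number of CG was 37 in the 93 receptor genes and 43 in the 20794 genes with full sequence. Receptor genes with the start under a peak in WT had a median of 43 CG, and those without had 20. Over all genes the order was the other way, with 39 and 44. By form, the median was 37 in covered genes, 49 in genes marked at the start with less than 50% of the window covered, and 22.5 in genes without a peak. In receptor genes with fewer than 20 CG, 50% of starts lay under a peak, with 20 to 49 CG 71.4%, and with 50 or more 75.8%. Over all genes these shares were 21.3%, 34.7% and 21.9%.

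The examples shown above fit no single rule of CG content. The 1000 bases held 76 CG at Drd5, 131 at Grid1 and 77 at Chrna7, but 10 at Chrnd, which lay in a domain of 18.2 kb, and 43 at Gabrb2, which had no peak. Binding of REST, a repressor of neuronal genes, was not measured here, and the letters of either part of its motif were counted as a description. CAGCACC, on either strand, was present in the 1000 bases of 36.6% of the receptor genes and 23.7% of all genes, and GGACAGC, on either strand, in 23.7% and 23.9%. The last letters of the second string (CAGC) are the first of the other, so that both can be read from 1 stretch, and a match is not a binding site.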

How the data were processed

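BMDM of WT, mdx and mdxTLR4-/- mice were profiled by ChIP-seq in 18 libraries by the labels, where mTLR4 was read as mdxTLR4-/-. The authors cut chromatin with micrococcal nuclease, mapped reads to mm10, merged the replicates and called peaks with SICER (window 200 bp, gap 600 bp, FDR below 0.01). The submitters' processing notes name Bowtie2 2.3.4, cutadapt 1.15, CASAVA 1.8 and SICER 2.0. Each of the 6 lists deposited by the authors gives the position of a peak and its count of ChIP reads, without scaling for depth or length and without subtraction of input. Library depth is unknown here. A peak thus depends on the detection limit of its list, which differs between lists of 28143 and 41780 peaks.

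From these lists, coverage of each gene window (5 kb upstream of the body to 1 kb past its end) by H3K27me3 peaks, the H3K27me3 state of the start and the H3K27ac peaks within 5 kb of the start were computed for 20807 protein-coding autosomal genes of GENCODE vM21. No test was run, since each genotype has 1 list. Genes are described by counts and medians beside the same over all genes. A covered gene had at least 50% of its window under peaks, and a difference was at least 10 percentage points.

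The receptor genes and the other lists were chosen with earlier results of these data known. Named were the genes with the highest and lowest WT coverage of each class, the 5 largest falls and 5 largest rises of each comparison, genes with H3K27ac near the start, genes that share a peak, and Chrna7 and Htr2b. Some genes that this rule names are not reported here. Other genes were named after their values were seen. Sequence around the start came from GRCm38.p6, and 13 genes with undetermined bases were left out of the CpG counts. Coverage was tested on simulated data and recovered in 4000 of 4000 windows. Alternatives were the coverage limit, the size of a difference, the window, the number, length and density of peaks, and the scaling of reads. The tools were Python 3.11.15 with pandas 2.3.3, scipy 1.17.1, matplotlib 3.10.9 and numpy 2.4.6. The input libraries were not analysed here.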

Additional observations from a re-analysis of the deposited data

How the results depend on the processing

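The number of receptor genes covered over at least 50% of the window stayed within 1.5 times in each genotype under all 6 alternatives (40 to 49 genes with the start window or a limit of 20%, and 32 to 40 otherwise). The counts of differences were less firm. They are given here as lower and higher in mdx than in WT, lower and higher in mdxTLR4-/- than in mdx, and lower and higher in mdxTLR4-/- than in WT, where they were 5, 3, 8, 1, 11 and 2. With differences of at least 20 points they were 0, 2, 3, 0, 2 and 1. With lists cut to equal length by density they were 12, 1, 6, 3, 14 and 1. With 5 kb either side of the start they were 12, 6, 17, 8, 19 and 6, and with the gene body alone 3, 5, 13, 4, 12 and 2. With a stricter read density they were 6, 3, 5, 3, 10 and 3, and with peaks of at least 2 kb 5, 3, 8, 1, 12 and 3. Counts under the alternatives were made for the receptor genes alone, so the share of all genes under the same setting is not known here. The H3K27ac count fell from 4, 4 and 3 genes to 1, 2 and 1 within 1 kb of the start, and to 2, 3 and 2 in the 5 kb upstream. The median density ratios changed direction with scaling to 1000000 reads in peaks (0.969, 1.15 and 1.10 for mdx over WT, mdxTLR4-/- over mdx and mdxTLR4-/- over WT). Divided by the 1st percentile of density they were 1.02, 1.06 and 1.06, which turned the latter pair. The cause of these shifts was not tested.

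Of 30 named coverage differences under 5 alternatives each, 8 values changed sign and 13 were 0. From WT to mdx these were Chrm5 (-8.69) and Grin3b (9.26) with the gene body alone and Htr3b (8.00) around the start. From mdx to mdxTLR4-/- they were Chrm5 (10.6) with the gene body alone, Gabrr1 (6.47) with equal numbers of peaks and Glra1 (4.40) with a stricter density. From WT to mdxTLR4-/- they were Gabrr2 (-14.4) with equal numbers of peaks and Htr3b (8.00) around the start. Values of 0 came with equal numbers of peaks at Chrne (WT to mdx) and Gabrp (mdx to mdxTLR4-/-), and with a stricter density at Chrne (WT to mdx), Gabrp (both comparisons with mdxTLR4-/-) and Gabrr2 (WT to mdxTLR4-/-). With peaks of at least 2 kb the value was 0 at Chrm5 (mdx to mdxTLR4-/-), around the start at Chrna5 (both comparisons with mdxTLR4-/-), and with the gene body alone at Adra2a (both comparisons with WT), Chrnb1 and Chrnb4 (WT to mdxTLR4-/-). Under equal numbers of peaks or a stricter density, the differences of Htr5b fell below 10 points (9.20 from WT to mdx and -6.76 from mdx to mdxTLR4-/-). No paired analysis was possible because the replicates were merged before the peaks were called, and leaving out a replicate was not possible for the same reason.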

Other observations

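The symbol pattern also matches 7 protein-coding genes on the X chromosome, which were kept out of all counts. Gria3, Gabre, Gabra3, Glra4 and Glra2 had no H3K27me3 peak in any of the 3 lists. Gabrq, the theta subunit of the GABA-A receptor, had coverage of 5.12% in WT and in mdxTLR4-/- BMDM and of 10.2% in mdx, with the start under a peak in each. Htr2c, the serotonin receptor of the choroid plexus, had 0% in WT and 1.74% in mdx, with 0.91% in mdxTLR4-/- BMDM. None of the 7 had an H3K27ac peak within 5 kb of the start in the 3 lists.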
